A study of Homo sapiens with 8 samples.

Results

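The genes described here are 35 genes of cholesterol and fatty acid synthesis that are known targets, carriers or sensors of the sterol regulatory element-binding proteins (SREBPs). They were taken from a list of gene symbols and not by a cut on their measured values. The list was, however, chosen with earlier results of these data known. Of the 35 genes, 34 were matched to 1 of the 56632 gene rows of the count table. The member not matched, ACACA, is not analysed here. The 34 fall into 18 sterol enzymes, 5 regulators, 3 genes of sterol transport and 8 fatty acid genes, and all 34 passed the filter on low counts that left 18431 genes to test.

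Sterol synthesis builds acetyl-CoA into mevalonate, isoprenoids, squalene and, through lanosterol, cholesterol. SREBP-2 and SREBP-1 are made as membrane proteins of the endoplasmic reticulum; SCAP escorts them to the Golgi for cleavage when sterols are low, and INSIG proteins hold the complex back when sterols are high. The released factors turn on the sterol enzymes, genes of sterol uptake and transport, fatty acid genes and INSIG1 itself, while liver X receptors (LXRs), which sense oxysterols, turn on genes of cholesterol efflux.

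RNA-seq covered 8 libraries, 2 biological replicates of each of 4 lines grown as acini in Matrigel for 8 days in medium with 2% horse serum, insulin, hydrocortisone and cholera toxin. M1 is MCF10A, a non-tumorigenic human mammary epithelial line. M2 is MCF10AT1k.cl2, made from MCF10A with activated T24-HRAS and selected by xenografting, and M3 (MCF10Ca1h) and M4 (MCF10CA1a.cl1) come from carcinomas that arose from M2 xenografts, so all 3 descend from cells given that HRAS. Each line is 1 derived line and its replicates are cultures of it. The medium of M1 and M2 held 10 ng/ml EGF and that of M3 and M4 held none, so in M3 or M4 against M1 or M2 the line and the EGF cannot be told apart, whereas M2 against M1, and M4 against M3, share a medium. Levels below are CPM, counts scaled to library size with TMM, and changes are log2 fold changes from edgeR's quasi-likelihood test with Benjamini-Hochberg adjustment over all 18431 genes. A member was called when its adjusted p was under 0.05 and its change was over 2-fold.

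Total counts per library ran from 69669945 to 107350288. HRAS RNA was 139 to 154 CPM in M1, 154 to 160 in M2 and 269 to 352 in M3 and M4, and its change in M2 against M1 was not called (log2 0.10, adjusted p = 0.736). The summed level of 8 mammary epithelial markers was 8098 to 15164 CPM in the 8 libraries. That sum hides opposite changes. In M4 against M1, 3 of the 8 were called higher and 3 lower, against 9.48% and 11.2% of all genes. Mean KRT5 was 7309 CPM in M1 and 3053 CPM in M4, and mean KRT18 was 429 and 1715 CPM. Of the markers of other cells COL1A2 (fibroblasts), ADIPOQ (adipocytes) and CD3E (T cells) were at 0 in all 8 libraries. Of the 7 fibroblast markers COL1A1 was at 6.07 to 25.5 CPM and the proteoglycan gene DCN at 34.1 and 1.62 CPM (M1), 60.2 and 58.6 CPM (M2) and at most 2.11 CPM in M3 and M4, and the other 5 were under 1 CPM in all libraries. The 2 M1 libraries differed in the genes described here: 31 of the 34 members were lower in M1 replicate 2 than in M1 replicate 1, with a median log2 difference of -0.72, against 49.1% of all genes tested and a median of 0.00. The same median was -0.01 in M2, -0.02 in M3 and 0.09 in M4. M1 replicate 1 also held the adipocyte marker FABP4 at 94.98 CPM, against 4.29 CPM in M1 replicate 2 and at most 0.422 CPM elsewhere, and the summed 6 adipocyte markers were 97.7 and 5.56 CPM in M1 and at most 1.11 CPM in the other lines. The part of these genes in the results was not tested. A supplementary list of the study exchanges the lines of 2 libraries, M1 replicate 2 and M2 replicate 1. The sample labels were followed, and the 2 libraries labelled M1 (Spearman's rho 0.971 across genes) and the 2 labelled M2 (0.998) were each closest to one another. The pairs that the exchange would make had rho 0.960 and 0.962. If the labels are right, the exchange mixes M1 and M2 libraries within a group. That by itself shrinks M2 against M1 and widens the spread, so a call lost with it cannot tell a weak result from a right label. Calls that the exchange changes are named with their values where those genes are described, and otherwise counted with their comparison.

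**Figure D1:**
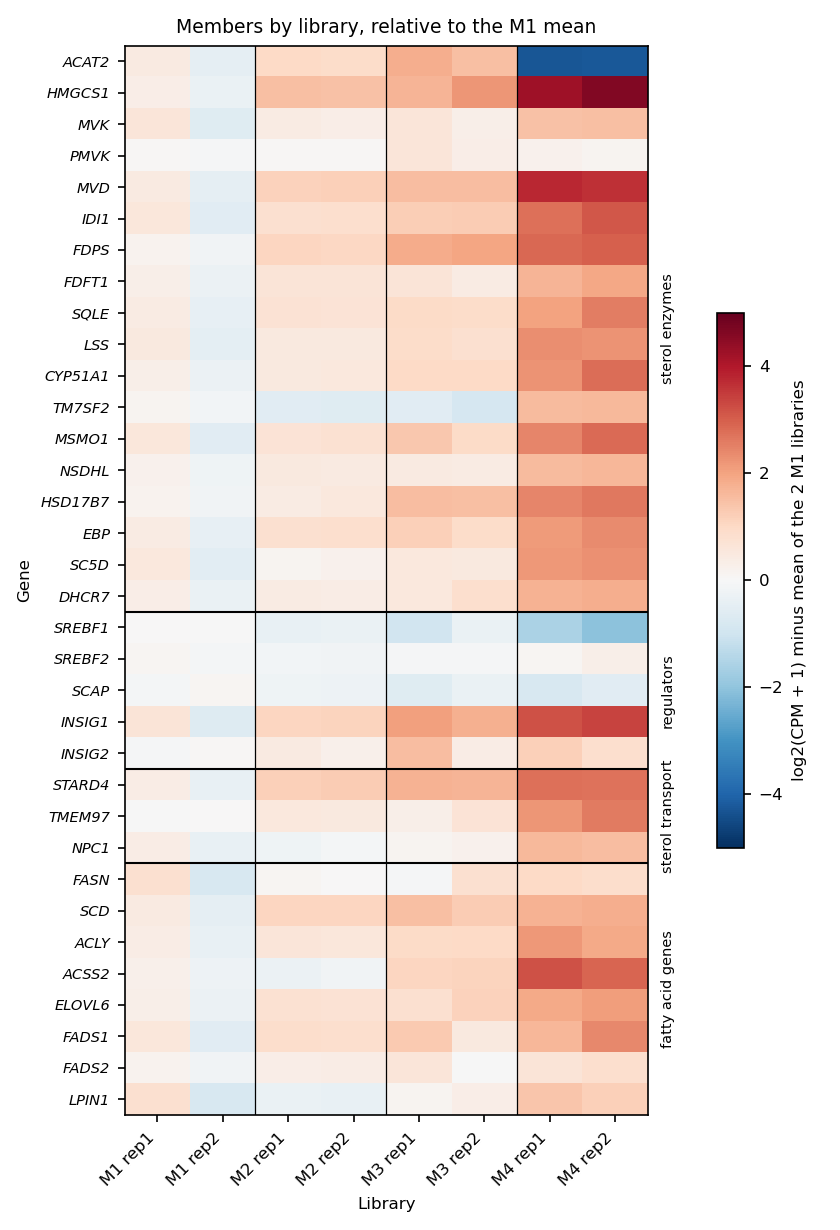
Level of each member in each library, as log2(CPM + 1) minus the mean of the 2 M1 libraries (colour), with genes in rows by role and libraries in columns. The M4 columns are the reddest for most sterol enzymes, while ACAT2 and SREBF1 are blue there; the column of M1 replicate 2 is bluer than that of M1 replicate 1.

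The promoters of the members were compared as a description of their sequence. RefSeq promoter windows on GRCh38.p14, from 250 bases before to 50 bases after each start, were at hand for 31 of the 35 genes, ACACA included. Each was searched on both strands, with overlaps between motifs allowed, for CCAAT, the box bound by NF-Y, for GGGCGG, the box bound by Sp1, and for TCACNCCAC, a sterol regulatory element. CCAAT was found in 22 of the 31 genes (71.0%) and in 13 of 15 sterol enzymes (86.7%), against 39.7% of all 27305 genes with a window. GGGCGG was found in 30 of 31 (96.8%), against 48.3% of all genes, and TCACNCCAC in 1 of 31, SREBF2 itself, against 1.39%. The windows of the other 30 do not hold those exact letters, which says nothing of sites elsewhere or with other letters. The bases from 180 to 31 before the start for the 5 sterol enzymes with the largest fitted rise in M4, for PMVK, the sterol enzyme with no called change, and for SREBF2, read in the direction of the gene, with CCAAT (or ATTGG, the same box on the other strand) in capitals and, in SREBF2, also the sterol regulatory element, are the following. For HMGCS1 and IDI1, which have several windows, the one with the most CCAAT matches is shown.
HMGCS1: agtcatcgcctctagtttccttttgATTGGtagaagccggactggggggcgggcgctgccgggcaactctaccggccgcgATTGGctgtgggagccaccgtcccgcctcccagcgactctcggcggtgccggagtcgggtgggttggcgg
MVD: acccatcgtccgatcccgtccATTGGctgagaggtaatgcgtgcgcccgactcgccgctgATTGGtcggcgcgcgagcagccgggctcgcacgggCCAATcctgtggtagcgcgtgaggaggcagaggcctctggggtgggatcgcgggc
FDPS: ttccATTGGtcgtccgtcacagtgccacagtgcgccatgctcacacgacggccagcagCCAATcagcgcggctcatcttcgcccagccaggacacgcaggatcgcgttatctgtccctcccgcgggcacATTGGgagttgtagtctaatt
IDI1: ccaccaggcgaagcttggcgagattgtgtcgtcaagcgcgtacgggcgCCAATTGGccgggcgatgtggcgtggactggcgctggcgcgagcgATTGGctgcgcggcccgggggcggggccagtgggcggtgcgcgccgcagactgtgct
HSD17B7: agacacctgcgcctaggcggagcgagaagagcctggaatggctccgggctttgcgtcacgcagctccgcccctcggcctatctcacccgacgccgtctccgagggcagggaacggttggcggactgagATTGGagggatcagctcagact
PMVK: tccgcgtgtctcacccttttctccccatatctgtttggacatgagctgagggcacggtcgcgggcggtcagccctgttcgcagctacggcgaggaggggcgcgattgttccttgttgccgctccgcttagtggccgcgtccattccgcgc
SREBF2: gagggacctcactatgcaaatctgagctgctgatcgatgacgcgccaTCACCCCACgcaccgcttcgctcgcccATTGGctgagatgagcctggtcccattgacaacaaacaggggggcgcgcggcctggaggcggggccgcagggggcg
These stretches lie at chr5:43313443-43313592, minus strand (HMGCS1), chr16:88663122-88663271, minus strand (MVD), chr1:155308686-155308835, plus strand (FDPS), chr10:1048917-1049066, minus strand (IDI1), chr1:162790522-162790671, plus strand (HSD17B7), chr1:154936750-154936899, minus strand (PMVK) and chr22:41832925-41833074, plus strand (SREBF2). The stretches of MVD, FDPS and IDI1 hold 3 CCAAT boxes each, that of HMGCS1 holds 2, those of HSD17B7 and SREBF2 hold 1, and that of PMVK holds 0. The number of boxes did not order the sterol enzymes by their rise in M4 against M1: the whole window of CYP51A1, which rose by 2.52 on the log2 scale, holds 0 like that of PMVK, and those of MVK and NSDHL, with 5 each, belong to genes that rose by 1.38 and 1.65.

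M4 against M1 asks how the most advanced line differs from the non-tumorigenic one. Of the 34 members 25 rose and 2 fell, against 9.48% of all genes tested called higher and 11.2% called lower. The median log2 change was 1.98 over the members and -0.02 over all genes. Among the 18 sterol enzymes 16 rose, 1 fell (ACAT2) and 1 was not called (PMVK), with a median of 2.22. All 3 transport genes rose (median 2.44), 5 of 8 fatty acid genes rose (median 1.85), and of the 5 regulators 1 rose (INSIG1) and 1 fell (SREBF1), with a median of 0.21. The summed level of the 18 sterol enzymes was 1748 and 1066 CPM (M1), 2244 and 2235 CPM (M2), 2904 and 2879 CPM (M3) and 7210 and 8388 CPM (M4). Both M4 libraries thus lay above all others, and the 4 lines did not overlap. With each library left out in turn 25 of the 27 calls were kept, the exceptions being MVK and FADS1, and with the exchanged assignment 23 were kept, the exceptions being MVK, STARD4, SCD and FADS1. Over all genes tested the exchange took the calls in M4 against M1 from 3821 to 1559. The M4 and M1 libraries did not overlap in any of the 34 members, nor in 67.3% of all genes.

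**Figure D2:**
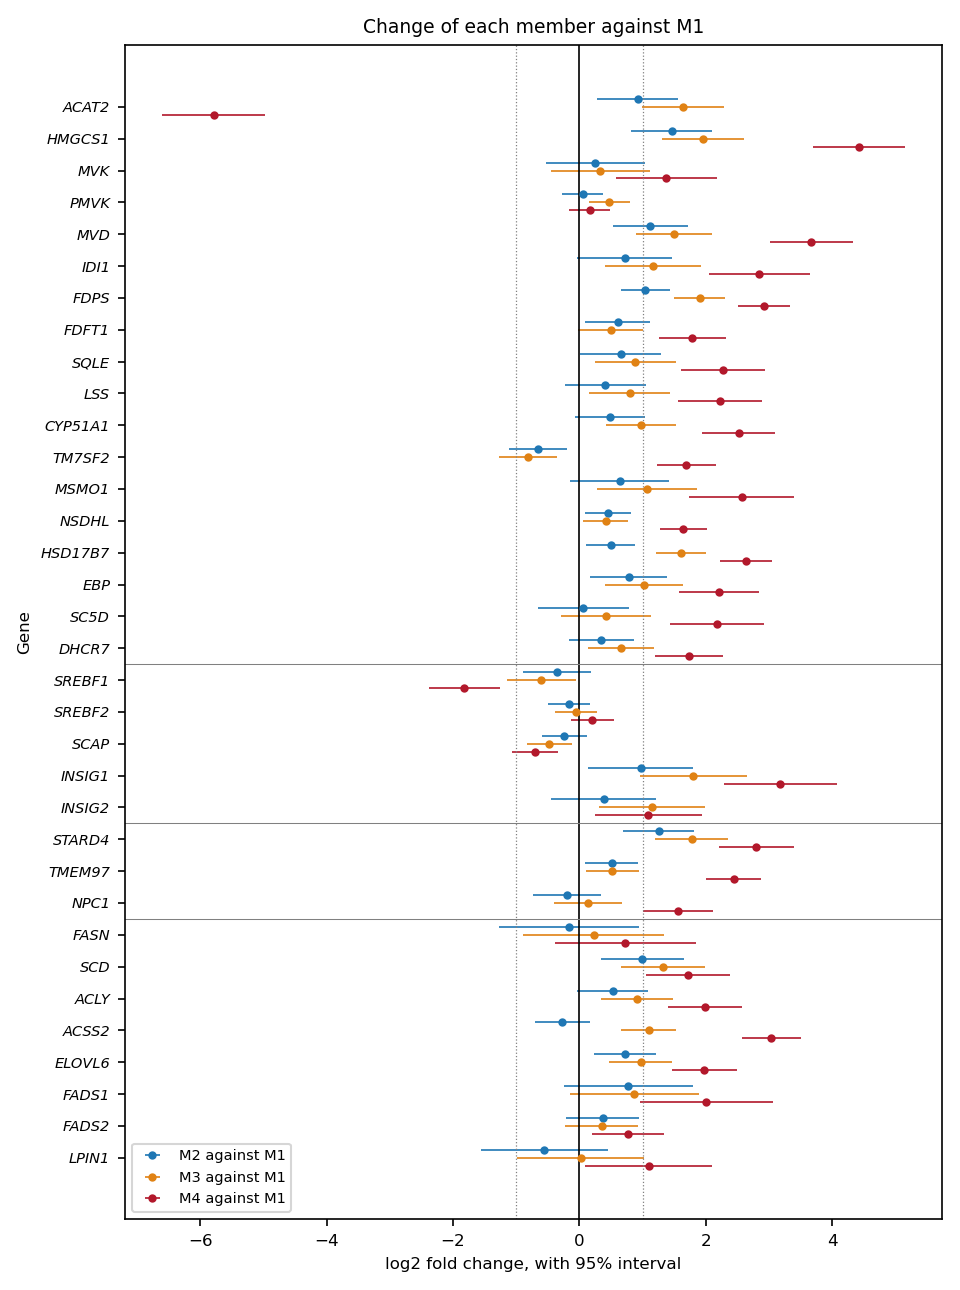
log2 fold change of each member (x axis) in M2, M3 and M4 against M1, with its 95% interval; genes on the y axis run by role, and dotted lines mark a 2-fold change. The M4 points lie to the right of 1 for 16 of 18 sterol enzymes, HMGCS1 being farthest at 4.43 and ACAT2 at -5.79 on the other side.

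The first steps make mevalonate and its isoprenoid products. HMGCS1, which condenses acetoacetyl-CoA with acetyl-CoA, was at 81.8 and 51.5 CPM (M1), 184 and 183 CPM (M2), 212 and 306 CPM (M3) and 1232 and 1633 CPM (M4). It rose 21.5-fold from M1 to M4, a log2 change of 4.43 (SE 0.31, adjusted p = 0.000189), the largest rise of any member. The lowest M4 library held about 4 times the highest M3 library, and no line overlapped another. MVK, mevalonate kinase, was at 69.5 and 29.8 CPM (M1), 60.3 and 57.9 CPM (M2), 69.3 and 55.8 CPM (M3) and 127 and 131 CPM (M4). Its log2 change in M4 against M1 was 1.38 (SE 0.34, adjusted p = 0.02). M1, M2 and M3 overlapped and only M4 stood above. This call was lost without M4 replicate 1, at 1.41 (adjusted p = 0.0677), without M4 replicate 2, at 1.37 (adjusted p = 0.0786), and without M1 replicate 2, at 0.89 (adjusted p = 0.016), where the change is under 2-fold, and with the exchanged assignment, at 0.99 (adjusted p = 0.0803).

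The next kinase of the chain differed. PMVK, phosphomevalonate kinase, was at 45.2 and 41.1 CPM (M1), 44.4 and 45.2 CPM (M2), 65.5 and 54.5 CPM (M3) and 49.8 and 47.1 CPM (M4). Its log2 change in M4 against M1 was 0.17, with a 95% interval of -0.16 to 0.49 and adjusted p = 0.402, so a 2-fold rise lies outside the interval. MVD, the decarboxylase that follows PMVK, was at 59.1 and 32.1 CPM (M1), 98.4 and 101 CPM (M2), 129 and 129 CPM (M3) and 609 and 555 CPM (M4). MVD rose 12.8-fold in M4 (log2 3.67, SE 0.28, adjusted p = 0.00024), with every M4 value over 4 times every M3 value. IDI1, isopentenyl diphosphate isomerase, was at 84.2 and 37.7 CPM (M1), 99.9 and 101 CPM (M2), 135 and 137 CPM (M3) and 391 and 487 CPM (M4), a log2 change of 2.85 (SE 0.35, adjusted p = 0.00124) in M4 against M1. FDPS, farnesyl diphosphate synthase, was at 174 and 135 CPM (M1), 321 and 315 CPM (M2), 557 and 599 CPM (M3) and 1129 and 1213 CPM (M4). FDPS rose in each line against M1, by 1.04 in M2, 1.91 in M3 and 2.92 (SE 0.18, adjusted p = 0.00013) in M4 on the log2 scale, and no line overlapped another. With the exchange the changes in M2 and M3 were -0.14 (adjusted p = 1) and 1.22 (adjusted p = 0.201), neither called.

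The middle of the pathway makes squalene and closes the ring. FDFT1, squalene synthase, was at 393 and 258 CPM (M1), 497 and 492 CPM (M2), 501 and 419 CPM (M3) and 1035 and 1211 CPM (M4). SQLE, squalene epoxidase, was at 108 and 61.1 CPM (M1), 135 and 131 CPM (M2), 157 and 155 CPM (M3) and 335 and 486 CPM (M4). LSS, lanosterol synthase, was at 162 and 83.1 CPM (M1), 164 and 162 CPM (M2), 222 and 204 CPM (M3) and 593 and 555 CPM (M4). In all 3 both M4 libraries stood above the other 6, and the log2 changes in M4 against M1 were 1.79 (SE 0.23, adjusted p = 0.00146) for FDFT1, 2.28 (SE 0.29, adjusted p = 0.00143) for SQLE and 2.23 (SE 0.29, adjusted p = 0.00149) for LSS. CYP51A1, which removes the 14-methyl group of lanosterol, was at 90.7 and 58.6 CPM (M1), 103 and 105 CPM (M2), 145 and 148 CPM (M3) and 354 and 505 CPM (M4), a log2 change of 2.52 (SE 0.25, adjusted p = 0.000539). The lowest M4 library held more than 2 times the highest M3 library.

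The later steps trim and reduce the sterol. TM7SF2, a sterol reductase of the step after CYP51A1, was at 10.3 and 8.15 CPM (M1), 5.92 and 5.74 CPM (M2), 5.80 and 4.70 CPM (M3) and 29.3 and 30.2 CPM (M4). It ran against the other enzymes in M2 and M3, where it was lowest, with log2 changes against M1 of -0.66 (SE 0.20, adjusted p = 0.103) and -0.81 (SE 0.20, adjusted p = 0.026), neither called, and it rose in M4 (1.69, SE 0.20, adjusted p = 0.00112). MSMO1, the sterol C4-methyl oxidase, was at 88.3 and 40.4 CPM (M1), 97.1 and 103 CPM (M2), 152 and 118 CPM (M3) and 326 and 437 CPM (M4). NSDHL, the C4 decarboxylase, was at 52.8 and 39.8 CPM (M1), 64.9 and 62.1 CPM (M2), 62.5 and 60.99 CPM (M3) and 141 and 148 CPM (M4). HSD17B7, the 3-ketosteroid reductase of the same C4 step, was at 11.6 and 9.05 CPM (M1), 13.98 and 15.2 CPM (M2), 31.9 and 31.3 CPM (M3) and 59.9 and 68.8 CPM (M4). M4 was above every other library in these 3, with log2 changes against M1 of 2.57 (SE 0.36, adjusted p = 0.00216) for MSMO1, 1.65 (SE 0.16, adjusted p = 0.000505) for NSDHL and 2.64 (SE 0.18, adjusted p = 0.000165) for HSD17B7. In HSD17B7 both M3 libraries were also over 2 times both M2 libraries, whereas in NSDHL M2 and M3 overlapped.

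The last 3 enzymes rose in mean at each step from M1 to M4. EBP, which moves the ring double bond, was at 74.4 and 41.1 CPM (M1), 98.1 and 100.3 CPM (M2), 129 and 106 CPM (M3) and 243 and 292 CPM (M4). SC5D, lathosterol oxidase, was at 39.8 and 18.1 CPM (M1), 29.4 and 31.2 CPM (M2), 39.3 and 38.4 CPM (M3) and 126 and 136 CPM (M4). DHCR7, 7-dehydrocholesterol reductase, was at 164 and 102 CPM (M1), 169.8 and 169 CPM (M2), 188 and 230.4 CPM (M3) and 431 and 451 CPM (M4). The M4 libraries were the highest in each, and the log2 changes in M4 against M1 were 2.21 (SE 0.28, adjusted p = 0.00133) for EBP, 2.18 (SE 0.32, adjusted p = 0.00257) for SC5D and 1.73 (SE 0.23, adjusted p = 0.00173) for DHCR7. SC5D in M1 replicate 1 overlapped M3, and its M2 libraries lay between the 2 M1 libraries.

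ACAT2, the cytosolic acetoacetyl-CoA thiolase that feeds HMGCS1, went the other way in M4. It was at 38.4 and 20.3 CPM (M1), 57.4 and 54.1 CPM (M2), 102 and 81.00 CPM (M3) and 0.511 and 0.551 CPM (M4). In counts the M4 libraries held 58 and 43, against 8080 and 7055 in M3. ACAT2 rose in M3 against M1 (log2 1.64, SE 0.28, adjusted p = 0.00715) and fell in M4 (log2 -5.79, SE 0.35, adjusted p = 0.00013), the rise in M3 not being called with the exchange, at 0.93 (adjusted p = 0.302). In M4 against M3 its log2 change was -7.43 (SE 0.38, adjusted p = 0.000218). No line overlapped another, and the M4 calls were kept under every alternative run. Its neighbours within 100 kb on chromosome 6 (GRCh37, ACAT2 at 160183077 to 160200144), looked up after its values were seen, did not fall with it: in M4 against M1 the log2 change was -0.14 for WTAP, 0.63 for TCP1 and 0.57 for MRPL18, none called, and PNLDC1 was too low to test. ACAT2 shares 454 of its 2639 exonic bases with TCP1 on the opposite strand, and the strand used in counting is not stated.

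The regulators are described next, as RNA levels only: cleavage of the SREBP proteins was not measured, and the counts do not separate the isoforms of SREBF1. SREBF2, which encodes SREBP-2, was at 328 and 284 CPM (M1), 277 and 269 CPM (M2), 292 and 297 CPM (M3) and 329 and 379 CPM (M4). Its log2 change in M4 against M1 was 0.21, with a 95% interval of -0.13 to 0.54 and adjusted p = 0.313, and M4 replicate 1 differed from M1 replicate 1 by less than 1 CPM. SREBF1, which encodes SREBP-1a and SREBP-1c, was at 469 and 456 CPM (M1), 362 and 363 CPM (M2), 239.6 and 370.3 CPM (M3) and 152 and 109.8 CPM (M4). SREBF1 fell in M4, by -1.82 (SE 0.24, adjusted p = 0.00169) against M1 on the log2 scale, and both M4 libraries lay below the other 6. The ratio of SREBF2 to SREBF1 counts was 0.700 and 0.623 for M1, 0.767 and 0.741 for M2, 1.22 and 0.801 for M3, 2.16 and 3.45 for M4. SCAP, the escort protein, was at 104 and 118 CPM (M1), 94.8 and 93.8 CPM (M2), 72.1 and 87.6 CPM (M3) and 62.9 and 73.96 CPM (M4). Its log2 change in M4 against M1, -0.70 (SE 0.15, adjusted p = 0.0123), passed the threshold on p and was under 2-fold, and M3 and M4 overlapped.

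The 2 INSIG genes differed in size of change. INSIG1, itself a SREBP target, was at 61.7 and 25.3 CPM (M1), 84.2 and 86.3 CPM (M2), 166 and 137 CPM (M3) and 365 and 422 CPM (M4). It rose 9.06-fold in M4 (log2 3.18, SE 0.38, adjusted p = 0.00127), and no line overlapped another. INSIG2, which is not driven by SREBP-2 in the same way, was at 9.29 and 10.04 CPM (M1), 13.4 and 11.8 CPM (M2), 30.2 and 12.7 CPM (M3) and 23.3 and 17.9 CPM (M4). Its log2 change in M4 against M1 was 1.09 (SE 0.36, adjusted p = 0.054), just over the threshold on p, and M3 replicate 1 was the highest library. INSIG2 was called in 8 of 17 alternatives. DESeq2 called it, at 1.11 with an adjusted p of 0.00972, and so did edgeR with total counts, at 1.15 (adjusted p = 0.0351), and with a replicate block, at 1.06 (adjusted p = 0.0422). Among the 8 were also the edgeR fits without M3 replicate 1 or M3 replicate 2, each at 1.10. The ratio of INSIG1 to INSIG2 counts was 6.64 and 2.52 for M1, 6.30 and 7.30 for M2, 5.49 and 10.8 for M3, 15.7 and 23.5 for M4, so both M4 libraries were above the rest.

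**Figure D3:**
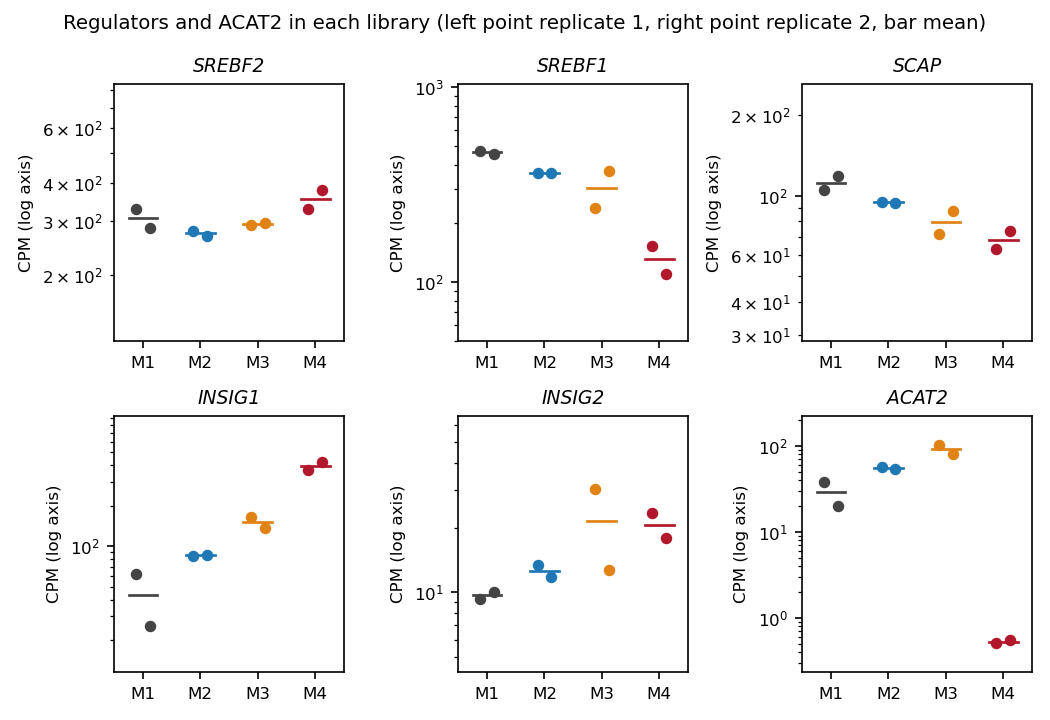
CPM of the 5 regulators and of ACAT2 in each library on log axes with different ranges, by line on the x axis; the left point is replicate 1, the right point replicate 2, the bar their mean. SREBF2 stays between 269 and 379 CPM in all libraries, SREBF1 is lowest and INSIG1 highest in M4, and ACAT2 drops to 0.511 and 0.551 CPM in M4.

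The 3 genes of sterol transport were highest in M4. STARD4, which carries cholesterol between membranes, was at 14.04 and 7.89 CPM (M1), 25.7 and 26.7 CPM (M2), 38.1 and 37.1 CPM (M3) and 76.5 and 75.9 CPM (M4). TMEM97, an endoplasmic reticulum protein that binds NPC1, was at 31.6 and 32.8 CPM (M1), 46.4 and 45.3 CPM (M2), 40.1 and 52.3 CPM (M3) and 152 and 198 CPM (M4). NPC1, which exports cholesterol from lysosomes, was at 59.6 and 34.5 CPM (M1), 39.2 and 42.9 CPM (M2), 50.3 and 52.9 CPM (M3) and 143 and 134 CPM (M4). STARD4 was called in every line against M1 and reached 2.80 (SE 0.26, adjusted p = 0.00042) in M4, whereas TMEM97 (2.44, SE 0.19, adjusted p = 0.000244) and NPC1 (1.56, SE 0.24, adjusted p = 0.00295) were called only in the comparisons with M4. The change of STARD4 with the exchanged assignment was -0.20 (adjusted p = 1) in M2, 0.92 (adjusted p = 0.397) in M3 and 1.94 (adjusted p = 0.0611) in M4, none of them called. NPC1 in M1 replicate 1 was above all M2 and M3 libraries.

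Among the fatty acid genes the largest change was in ACSS2, the cytosolic acetyl-CoA synthetase, at 77.6 and 55.6 CPM (M1), 53.2 and 57.4 CPM (M2), 140.0 and 145 CPM (M3) and 598 and 495 CPM (M4). ACSS2 rose 8.21-fold in M4 against M1 (log2 3.04, SE 0.20, adjusted p = 0.000165), while M1 and M2 overlapped. ACLY, which makes acetyl-CoA from citrate, was at 369.9 and 218 CPM (M1), 428 and 419 CPM (M2), 546 and 562 CPM (M3) and 1266 and 1065 CPM (M4). ELOVL6, an elongase of long-chain fatty acids, was at 67.2 and 44.3 CPM (M1), 93.3 and 91.04 CPM (M2), 97.00 and 121 CPM (M3) and 205 and 235 CPM (M4). Both were highest in M4, at log2 changes of 1.99 (SE 0.25, adjusted p = 0.00143) and 1.98 (SE 0.22, adjusted p = 0.000843) against M1. SCD, stearoyl-CoA desaturase, was at 1211 and 643 CPM (M1), 1858 and 1842 CPM (M2), 2488 and 2156 CPM (M3) and 2968 and 3121 CPM (M4). It was the most abundant member per kilobase of exon in each line, from 177 CPM per kilobase in M1 to 580.5 in M4, and its log2 change was 1.72 (SE 0.29, adjusted p = 0.00425), or 0.99 (adjusted p = 0.222) and not called with the exchanged assignment. M4 exceeded M3 in SCD by only 0.39 on the log2 scale (adjusted p = 0.365).

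The desaturases FADS1 and FADS2, adjacent genes whose exons share 490 bases on opposite strands, were not alike in level. FADS1 was at 47.2 and 21.1 CPM (M1), 59.4 and 57.1 CPM (M2), 79.9 and 44.6 CPM (M3) and 103 and 172 CPM (M4), with a log2 change of 2.01 (SE 0.45, adjusted p = 0.0145) in M4 against M1. Without M4 replicate 2 that change was 1.61 (adjusted p = 0.0731), and with the exchange 1.37 (adjusted p = 0.129), neither called. FADS2 was at 14.1 and 10.99 CPM (M1), 15.9 and 16.5 CPM (M2), 19.7 and 12.3 CPM (M3) and 19.9 and 22.98 CPM (M4). Its log2 change of 0.77 (SE 0.25, adjusted p = 0.0475) was under 2-fold, and M1 and M3 overlapped. Both counts are uncertain to the extent that reads of the shared exons were split. FASN, fatty acid synthase, was at 1416 and 468 CPM (M1), 864 and 817 CPM (M2), 784 and 1423 CPM (M3) and 1632 and 1488 CPM (M4). The 2 M1 libraries spanned both M2 libraries and M3 replicate 1, and the log2 change in M4 against M1 was 0.73, with a 95% interval of -0.39 to 1.85 and adjusted p = 0.286, or 1.75 (adjusted p = 0.0162) without M1 replicate 1. LPIN1, a phosphatidate phosphatase, was at 179.8 and 59.3 CPM (M1), 82.7 and 80.1 CPM (M2), 113 and 129 CPM (M3) and 275 and 236 CPM (M4). Its M1 libraries spanned all of M2 and M3. In M4 against M1 its log2 change was 1.09 (SE 0.43, adjusted p = 0.0938), or 2.12 without M1 replicate 1. LPIN1 was called in 3 of 17 alternatives: that one, DESeq2, and edgeR with no filter on low counts. DESeq2 gave 1.11 (adjusted p = 0.0204) and edgeR with no filter 1.10 (adjusted p = 4.262e-07). The change with no filter was almost that of the main fit, so its lower adjusted p reflects the spread estimated there and not a larger change.

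M4 against M3 compares the 2 carcinoma lines in the same medium without EGF. Of the 34 members 22 were higher and 2 lower in M4, against 3.99% and 6.3% of all genes, and the median log2 change was 1.11 over the members and -0.02 over all genes. The medians were 1.34 for the sterol enzymes, 1.42 for transport, 1.04 for fatty acid genes and -0.06 for regulators. TM7SF2 had the largest rise (2.50, SE 0.21, adjusted p = 0.00124), followed by HMGCS1 (2.47, SE 0.29, adjusted p = 0.00324) and MVD (2.17, SE 0.26, adjusted p = 0.00366), and the members lower in M4 were ACAT2 and SREBF1 (-1.22, SE 0.24, adjusted p = 0.0154). FDPS, HSD17B7, STARD4 and ELOVL6 were called with log2 changes of 1.01 to 1.03, close to the 2-fold limit. The groups of 2 libraries did not overlap in 32 of the 34 members, all but SCAP and INSIG2, and in 60.2% of all genes. The exchanged assignment alters no M3 or M4 library, but the fit takes its spread from all 8 libraries. HMGCS1 and MVD stayed at 2.47 and 2.17 with it, and the calls it removed here were lost on adjusted p and not on fold. Leaving out either M2 library also alters no M3 or M4 library. The calls of MSMO1, EBP, INSIG1, STARD4 and ACLY were lost that way, again not on fold. With a library of M3 or M4 left out the count of 24 fell, to 12 without M3 replicate 1, 14 without M3 replicate 2, 10 without M4 replicate 1 and 9 without M4 replicate 2, and it was 9 with the exchanged assignment. Calls kept with every library left out in turn were 8, ACAT2, HMGCS1, MVD, CYP51A1, TM7SF2, NSDHL, TMEM97 and ACSS2.

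M4 against M2 differs from the previous comparison by the step from the HRAS line and by EGF. It gave 23 members higher and 2 lower in M4, against 6.98% and 6.94% of all genes, with a median log2 change of 1.501 over the members and -0.01 over all genes. The largest rises were in ACSS2 (3.31, SE 0.20, adjusted p = 0.000264) and HMGCS1 (2.96, SE 0.29, adjusted p = 0.00098). The genes lower in M4 were again ACAT2 (-6.71, SE 0.37, adjusted p = 0.00023) and SREBF1 (-1.47, SE 0.24, adjusted p = 0.00566), and LPIN1 was called here (1.65, SE 0.44, adjusted p = 0.035), though not without any 1 of the M2, M3 or M4 libraries. Without M2 replicate 1 the count of 25 fell to 13, and without M2 replicate 2 to 15.

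The earlier lines moved less. In M2 against M1, within the medium with EGF, 3 members were called, HMGCS1 (1.46, SE 0.28, adjusted p = 0.0284), STARD4 (1.26, SE 0.24, adjusted p = 0.0308) and FDPS (1.04, SE 0.17, adjusted p = 0.0171), all higher, against 2.26% of all genes called higher and 1.11% lower. The median log2 change was 0.49 over the members and -0.04 over all genes. The count was 11 without M1 replicate 1, 1 without M1 replicate 2, 0 without either M2 library and 0 with the exchanged assignment, where the changes of all 3 turned to between -0.20 and -0.14. If the labels are right, the exchange mixes the 2 lines compared here, so these changes had to shrink with it. STARD4 was also not called without either M4 library. MVD, at 1.12 (SE 0.26, adjusted p = 0.0503), and SCD, at 1.00 (SE 0.28, adjusted p = 0.0884), were not called. In M3 against M1, 11 members were called, all higher, against 8.02% of all genes called higher and 5.51% lower, with a median of 0.88 over the members and -0.02 over all genes. They were 7 sterol enzymes (ACAT2, HMGCS1, MVD, IDI1, FDPS, HSD17B7 and EBP), INSIG1, STARD4, SCD and ACSS2, led by HMGCS1 (1.96, SE 0.28, adjusted p = 0.00372). The count was 21 without M1 replicate 1, 7 without M1 replicate 2 and 0 with the exchanged assignment, and 6 of the 11 calls were kept with each library left out in turn.

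In M3 against M2 only ACSS2 (1.36, SE 0.19, adjusted p = 0.00854) and HSD17B7 (1.11, SE 0.17, adjusted p = 0.0114) were called, both higher in M3, against 2.95% of all genes called higher and 1.2% lower, and the median was 0.37 over the members and 0.00 over all genes. Both calls were lost without either M2 library, and HSD17B7 also with the exchange, at 1.38 (adjusted p = 0.0653). FDPS, at 0.86 (SE 0.17, adjusted p = 0.0296), was under 2-fold. Across the means of the 4 lines, 20 of the 34 members rose at each step from M1 to M4, as did 8.09% of all genes, and 29 were highest in M4, as were 29.5% of all genes. Those rising at each step were 13 of 18 sterol enzymes, 2 of 3 transport genes, 4 of 8 fatty acid genes and 1 of 5 regulators. The steps from M1 to M2 and from M2 to M3 were not called for most of them, so the order of these neighbours is a description.

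Other genes of the pathway came from lists written from general knowledge, with earlier results of these data known. They were counted in the same fit, in which 20.7% of all genes were called in either direction in M4 against M1. Of 9 genes of SREBP processing and turnover, such as the proteases MBTPS1 and MBTPS2, 1 was called in M4 against M1, PAQR3, a Golgi protein that binds SCAP (1.06, SE 0.22, adjusted p = 0.0101). That call was lost without M4 replicate 2, at 1.02 (adjusted p = 0.0576), and without M1 replicate 2, at 0.95 (adjusted p = 0.0496), under 2-fold, and with the exchange, at 0.48 (adjusted p = 0.502). Of 11 genes of the isoprenoid branch, which use the products of FDPS for prenylation, dolichol and ubiquinone, 1 was called, DHDDS, the dehydrodolichyl diphosphate synthase subunit (1.34, SE 0.15, adjusted p = 0.000755). The medians of these lists were -0.22 and 0.29. Of 13 other genes of sterol uptake, storage and transport 2 were called, OSBPL5 and GRAMD1B, both lower. Of 14 other fatty acid and glycerolipid genes tested 2 were called, the elongase ELOVL5 and the acyltransferase DGAT2, both lower. The medians of these last 2 lists were 0.24 and 0.47, and 7 of the 13 and 9 of the 14 log2 changes were above 0. OSBPL5 was not called without M4 replicate 1, at -0.95 (adjusted p = 0.0222), nor ELOVL5 without M1 replicate 1, at -0.83 (adjusted p = 0.0182), M4 replicate 1, at -1.34 (adjusted p = 0.0745), or M4 replicate 2, at -1.57 (adjusted p = 0.055). At an adjusted p under 0.05 with no fold limit, 5 of the 13 and 8 of the 14 passed, against 31.4% of all genes. With the exchange GRAMD1B, at -2.87 (adjusted p = 0.069), and ELOVL5, at -1.34 (adjusted p = 0.0935), were not called.

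**Figure D4:**
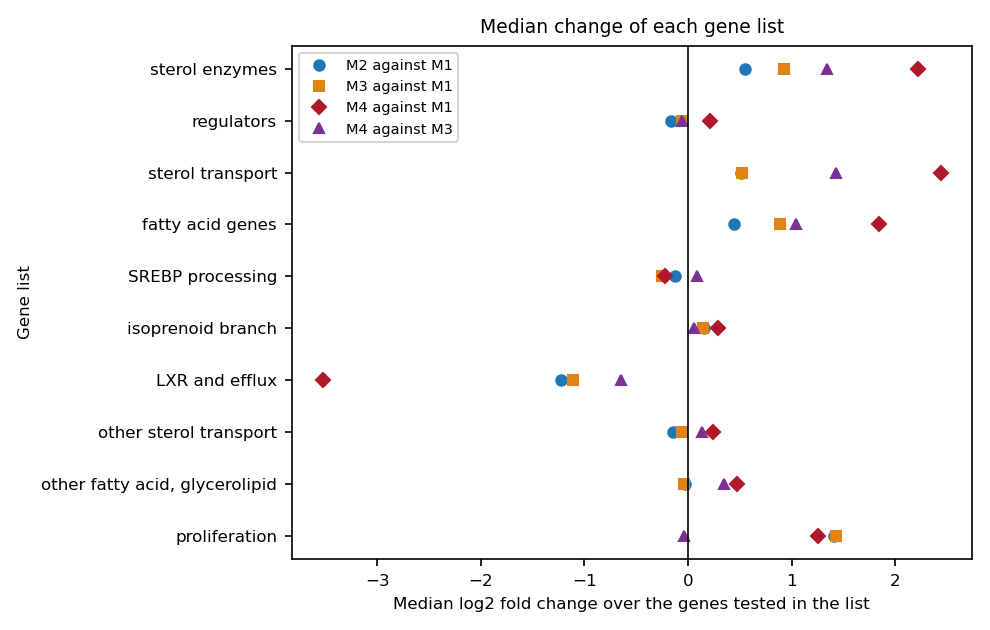
Median log2 fold change (x axis) of the genes tested in each list (y axis) in 4 comparisons, marked by symbol. In M4 against M1 the sterol enzymes, transport and fatty acid genes lie between 1.85 and 2.44, the LXR and efflux list at -3.53 and SREBP processing at -0.22; the proliferation list is at 1.25 to 1.42 against M1 and at -0.04 in M4 against M3.

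NR1H3 and the targets of LXR, the sterol-sensing nuclear receptor, that are on the LXR and efflux list fell in M4. That list holds none of the members. Of 7 such genes 6 were lower in M4 against M1 and NR1H2 was not called, against 11.2% of all genes called lower, with a median log2 change of -3.53. With the exchange 3 of the 6 calls were lost, NR1H3 at -1.28 (adjusted p = 0.116), ABCA1 at -2.59 (adjusted p = 0.0706) and APOE at -2.82 (adjusted p = 0.0824). NR1H3, which encodes LXR alpha, was at 13.9 and 24.3 CPM (M1), 13.7 and 13.04 CPM (M2), 11.5 and 6.21 CPM (M3) and 4.03 and 7.35 CPM (M4), a log2 change of -1.75 (SE 0.42, adjusted p = 0.0168). That call was lost without M1 replicate 2, at -1.29 (adjusted p = 0.0815), and without M4 replicate 1, at -1.37 (adjusted p = 0.0962). NR1H2, LXR beta, was at 95.8 and 106 CPM in M1 and 67.2 and 62.3 in M4, under the fold limit (-0.64, SE 0.15, adjusted p = 0.0157). The efflux pump ABCA1 was at 3.37 and 7.76 CPM (M1), 2.41 and 2.35 CPM (M2), 0.354 and 0.482 CPM (M3) and 0.731 and 0.218 CPM (M4). The efflux pump ABCG1 was at 28.3 and 32.03 CPM (M1), 5.67 and 4.53 CPM (M2), 14.2 and 7.43 CPM (M3) and 0.344 and 0.0512 CPM (M4). MYLIP, a ubiquitin ligase that removes lipoprotein receptors, was at 27.5 and 34.5 CPM (M1), 6.83 and 5.52 CPM (M2), 3.06 and 3.31 CPM (M3) and 0.925 and 0.346 CPM (M4). In each of the 3 both M4 libraries were under 1 CPM and under all M1 and M2 libraries, and their log2 changes in M4 against M1 were -3.53 (SE 0.65, adjusted p = 0.00603), -7.16 (SE 0.71, adjusted p = 0.000588) and -5.58 (SE 0.46, adjusted p = 0.000291). LPCAT3, a phospholipid acyltransferase (-1.52, SE 0.21, adjusted p = 0.00199), and APOE, an apolipoprotein (-4.33, SE 0.80, adjusted p = 0.00613), were also lower, APOE at levels of at most 4.22 CPM and not called without M4 replicate 2, at -3.98 (adjusted p = 0.053).

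In M2 against M1 the LXR targets ABCG1 (-2.56, SE 0.56, adjusted p = 0.045) and MYLIP (-2.33, SE 0.39, adjusted p = 0.0189) were lower by the labels. Both calls were lost without either M2 library, and ABCG1 also without either M1 library. With the exchange both directions turned, to 0.11 (adjusted p = 1) and 0.22 (adjusted p = 1). In M3 against M1 ABCA1, MYLIP and LPCAT3 were lower, LPCAT3 not without M1 replicate 1, at -0.88 (adjusted p = 0.0504), or M3 replicate 1, at -0.91 (adjusted p = 0.0565). With the exchange all 3 calls were lost, at -2.78 (adjusted p = 0.13), -2.43 (adjusted p = 0.238) and -0.94 (adjusted p = 0.147). In M4 against M3 ABCG1 (-5.68, SE 0.68, adjusted p = 0.00366), MYLIP (-2.30, SE 0.41, adjusted p = 0.0114) and APOE (-3.53, SE 0.78, adjusted p = 0.0224) were lower. The APOE call was lost without M3 replicate 1 or either M4 library, with adjusted p from 0.0789 to 0.118. With the exchange none of the 3 was called, with ABCG1 at -5.70 (adjusted p = 0.0538), MYLIP at -2.30 (adjusted p = 0.201) and APOE at -3.53 (adjusted p = 0.0643).

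**Figure D5:**
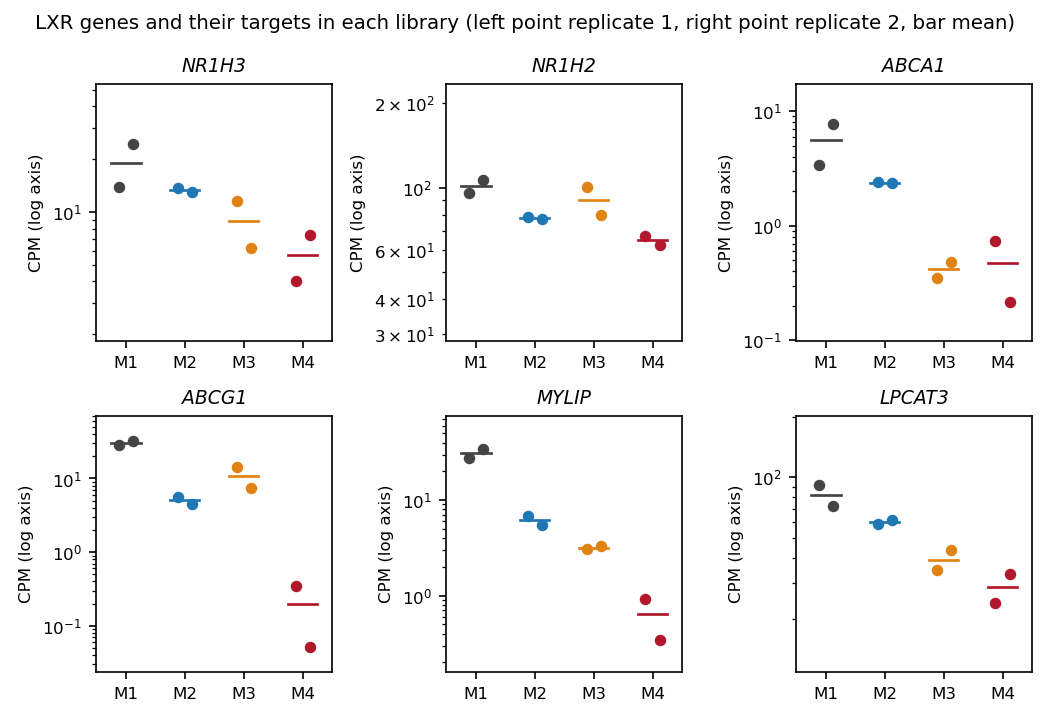
CPM of the 2 LXR genes and 4 of their targets in each library on log axes with different ranges, by line on the x axis; the left point is replicate 1, the right point replicate 2, the bar their mean. ABCG1 and MYLIP are at 27.5 to 34.5 CPM in M1 and under 1 CPM in M4, while NR1H2 stays between 62.3 and 106 CPM.

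Proliferation genes, which were not members, also differed in level between M1 and the other lines. Of 10 such genes 8 were higher in M2 against M1, 7 in M3 against M1 and 7 in M4 against M1, against 2.26%, 8.02% and 9.48% of all genes, and their summed level was 751 and 657 CPM (M1), 1887 and 1861 CPM (M2), 1876 and 1768 CPM (M3) and 1513 and 2049 CPM (M4). In M3 against M2, M4 against M2 and M4 against M3, 0 of the 10 were called by edgeR, while 1, 3 and 2 had an unadjusted p under 0.05 and 0, 1 and 1 an adjusted p under 0.05. Their log2 changes in the last 2 of these ran from -0.84 to 0.90 and from -0.74 to 0.76. Growth itself was not measured, and the part of these genes in the member results was not tested. Of the 5 leukocyte markers CD68, which other cells also express, rose from 9.55 and 4.03 CPM in M1 to 51.4 and 39.0 CPM in M4, and the other 4 were at most 0.464 CPM in all libraries. The summed 7 fibroblast markers were 6.43 to 74.7 CPM and the summed 3 endothelial markers were 0.128 to 3.12 CPM. Exons shared with genes on the opposite strand could add reads to members: FDPS shares 693 of 3718 exonic bases with RUSC1-AS1, and HMGCS1 shares 2497 of 6627 with a long non-coding gene.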

How the data were processed

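Poly A+ RNA from 2 replicates of each line was sequenced in paired ends. The authors trimmed reads with Trimmomatic, aligned them with STAR to hg19, and with RSEM and the GENCODE v19 annotation made expected counts for each gene. The deposited expected counts are estimated and not normalized, and 12.8% of them are not whole numbers, so they were rounded. Tool versions and the use of strand are not given in the sources used here. Library totals ran from 69669945 to 107350288.

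Symbols and positions came from GENCODE 44 on GRCh37, and 94.4% of rows had a symbol. Tests used edgeR 4.0.16 in R 4.3.3 (robust quasi-likelihood F test, TMM, filterByExpr, 1 coefficient per line over all 8 libraries), and the standard error is that implied by the F statistic. With 2 replicates, p-values measure the spread between cultures within a line, estimated over all 4 lines together. The M2 replicates differed least, at Spearman's rho 0.998, against 0.971 in M1, 0.977 in M3 and 0.986 in M4. M2 thus added little to that spread. Since the spread is shared, comparisons without M2 also rest on how close the M2 libraries were. On simulated counts for M4 against M1 over 18431 genes the fit called 14 of 50 genes changed 2-fold, 31 of 50 changed 4-fold, 36 of 50 changed 8-fold and 42 of 50 changed 16-fold, with 9 false calls. The changed genes were drawn at random from all genes tested. Each gene was simulated with the same spread in every line, while the real replicates were closer in M2 than in the other lines. The simulation therefore does not show how many calls are recovered or false under such unequal spread. Those changed 2-fold lay at the fold limit itself, with a median fitted log2 change of 1.015, so their recovery partly restates that limit. Named were all members, the genes of the pathway lists called in M4 or M3 against M1, and HRAS. Also named, outside that rule, were MBTPS1, MBTPS2 and NR1H2, which were not called there, and single cell type markers. The same holds for the neighbours of ACAT2 and for genes that share exons with members. The members and lists were chosen with earlier results of these data known, so no test was made over a list. Alternatives were DESeq2 1.42.0, other scalings, filters and thresholds, a replicate block, a fit of 2 lines, the exchanged assignment and leaving out each library. Promoters came from RefSeq. Python 3.11.15 with pandas 2.3.3 and matplotlib 3.10.9 did the rest.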

Additional observations from a re-analysis of the deposited data

Results flagged for a closer look

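ACAT2 and TM7SF2 are singled out because their changes against M1 had opposite signs in M3 and M4, and M4 against M3 was itself called by edgeR's test. ACAT2 was at 1.64 in M3 and at -5.79 in M4 on the log2 scale, and its log2 change in M4 against M3 was -7.43. TM7SF2 was at -0.81 in M3, under the fold limit, and at 1.69 in M4, and its log2 change in M4 against M3 was 2.50. Both comparisons share the M1 libraries.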

How the results depend on the processing

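The count of members called in M4 against M1 stayed between 23 and 29 under every alternative run, against 27. In M2 against M1 the 3 calls became 5 with no filter on low counts, 0 at an adjusted p under 0.01, 0 with M1 replicate 2 and M2 replicate 1 exchanged, and 0 to 11 with each library left out. In M3 against M1 the 11 became 7 in a fit of only these lines, 7 at an adjusted p under 0.01, 0 with the exchange and 7 to 21 with a library left out. In M3 against M2 the 2 became 1 at an adjusted p under 0.01, 1 with the exchange and 0 to 3 with a library left out. In M4 against M2 the 25 became 13 to 27 with a library left out, and in M4 against M3 the 24 became 11 at an adjusted p under 0.01, 9 with the exchange and 9 to 27 with a library left out, where a lone library is assumed to vary like the other lines. The exchange turned the M2 against M1 medians to -0.27 for sterol enzymes, -0.20 for transport and -0.31 for fatty acid genes, and the log2 changes of HMGCS1 to -0.18, FDPS to -0.14, STARD4 to -0.20, ABCG1 to 0.11 and MYLIP to 0.22. It moved the medians in M3 against M1 to 0.24 for transport, in M4 against M1 to 1.94 for transport, in M3 against M2 to 0.76 for sterol enzymes and 0.79 for fatty acid genes, and in M4 against M2 to 2.16 for sterol enzymes, 2.14 for transport and 1.76 for fatty acid genes. Total counts moved the sterol median in M3 against M2 to 0.31, and upper-quartile scaling the transport median in M4 against M1 to 2.30; with a library left out the latter was 2.26 to 2.63, and the fatty acid median in M4 against M3 was 0.84 to 1.05. The cause was not tested for any of these.

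Upper-quartile scaling shifted the median of all genes by -0.10 in M3 against M1 and -0.13 in M4 against M1, and total counts by 0.13 in M4 against M3. The correlation of replicate deviations was 0.23 between M3 and M4, and from -0.06 to 0.01 between all other pairs of lines. Whether the replicate numbers pair the M3 and M4 samples was not tested. With the number as a block, 4, 11, 28, 2, 26 and 24 members were called in M2 against M1, M3 against M1, M4 against M1, M3 against M2, M4 against M2 and M4 against M3. Of 2261 alternative values of named genes, 1996 kept their direction and call, 248 lost the call, 12 gained one and 5 turned. With 2 libraries per line, changes near 2-fold are at the limit of these data, and they also lie at the fold limit of the calls.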
